A study of Mus musculus with 12 samples.

Results

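The comparison set 2 lines of primary mouse embryonic fibroblasts that lacked the CH1 domain of CBP and p300 against 2 control lines in which the same gene had been floxed. CBP (gene Crebbp) and p300 (gene Ep300) are related histone acetyltransferases that many transcription factors recruit to promoters and enhancers. Their CH1 domain, also called TAZ1, is a zinc-binding fold that docks the transactivation domain of HIF-1α and HIF-2α as well as that of CITED2, a competitor of HIF, and it has other partners. In hypoxia HIF is stabilised and switches on genes of glucose use, angiogenesis and oxygen sensing.

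The control lines, flox2_1 and flox2_2, carried 1 floxed and 1 wild-type allele of Ep300. The compared lines, triCH1flox2_1 and triCH1flox2_2, carried Crebbp with CH1 deleted on both alleles, Ep300 with CH1 deleted on 1 allele, and a floxed second Ep300 allele. All lines were derived from e14.5 embryos, received adenovirus expressing Cre recombinase at passage 3 and were expanded at least 100-fold before use. Controls were therefore exposed to Cre as well, and complete recombination would leave a single Ep300 allele in both genotypes, with CH1 in the controls and without it in the triCH1flox2 lines. Each line was cultured for 6 h at 21% O2 (normoxia) or 0.1% O2 (hypoxia) and hybridised to 1 Affymetrix Mouse430_2 array per condition. Samples were chosen by name, which gave 8 of the 12 arrays in the series, 4 a side; the other 4 arrays came from the pair of lines with floxed Crebbp. Nothing in the labels says whether lines of 1 genotype came from separate embryos, so the p-values measure the spread between these lines only.

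The 8 arrays had been scaled to a common target of 500 with scale factors of 2.57 to 4.11. Their median signals were 65.3, 64.1, 67.5 and 64.1 in flox2 and 65.2, 75.4, 76.1 and 74.9 in triCH1flox2 arrays (line 1 normoxia and hypoxia, then line 2). Pearson's r between any 2 of the 8 arrays was 0.941 to 0.976, and 0 pairs were identical. Sex markers gave flox2_1 and triCH1flox2_2 as female and flox2_2 and triCH1flox2_1 as male, so each genotype had 1 line of each sex. All 12 fibroblast markers had a signal of at least 100 on some array, with summed signals of 162027 to 193497 in flox2 arrays and 155811 to 199374 in triCH1flox2 arrays. Of the endothelial, macrophage, epithelial, neural, adipocyte and skeletal muscle markers, 8 of 10, 6 of 12, 4 of 12, 3 of 12, 5 of 8 and 9 of 18 lay below 100 on all 8 arrays. The summed muscle markers were 13067.5 to 19618.3 in flox2 and 8484.2 to 13674 in triCH1flox2 arrays, of which Acta1, skeletal actin, alone made up 90.8 to 92.9%. Without Acta1 the sums were 1168.3 to 1790.5 and 631.1 to 1254.4, and the part of these markers in the results was not tested. In such bulk RNA fewer cells of a type and less RNA per cell cannot be told apart.

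For the targeted genes, differences between the genotypes were within their errors. The brightest for Crebbp read 1837.4 and 1632.1 (normoxia, hypoxia) in flox2_1, 1076.8 and 1013.0 in flox2_2, 1852.4 and 1754.6 in triCH1flox2_1 and 1276.9 and 922.2 in triCH1flox2_2. The log2 difference, triCH1flox2 minus flox2, was 0.06 ± 0.31 (SE) for this probe set and 0.05 ± 0.29 for Ep300, with adjusted p of 0.959 and 0.966 in limma. Whether any of these probe sets reads the deleted CH1 sequence is not known here, so they do not check the labels.

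Averaged over oxygen, the lines without CH1 had higher signals of DNA replication genes. The 50 genes called lower were mixed, and 35 of them stood on none of the gene lists, as did 11 of the 20 called higher. A first principal component with 29.7% of the variance placed all 4 flox2 arrays between -37.2 and -15.4 and all 4 triCH1flox2 arrays between 15.2 and 36.5. The second, with 20.6%, ordered arrays within both genotypes, with flox2_2 in normoxia farthest from the rest.

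**Figure D1:**
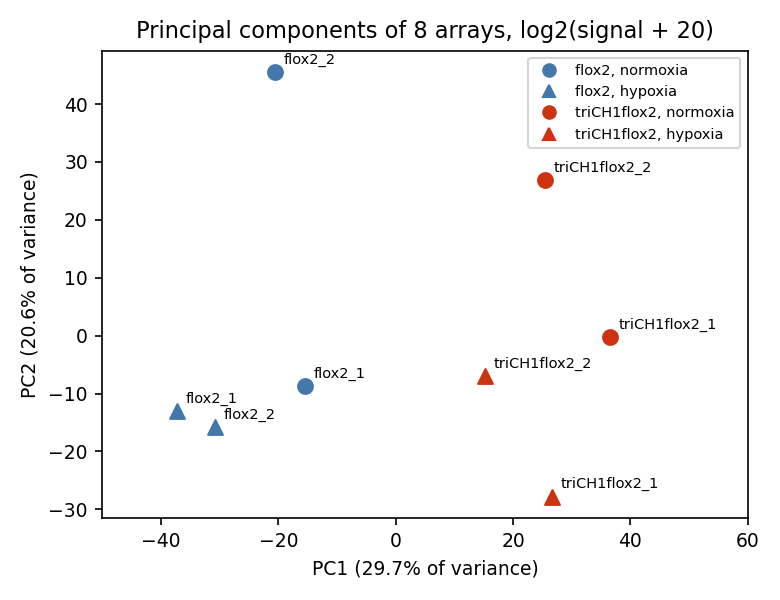
Principal components of the 8 arrays, computed on log2(signal + 20); each point is 1 array, colour gives the genotype, shape the oxygen condition and the text the line. The genotypes lie on opposite sides of 0 on PC1 (29.7% of variance), at or below -15.4 and at or above 15.2.

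The line, not the array, was the replicate: each line entered the test as the mean of log2(signal + 20) over its normoxia and hypoxia array, 2 lines against 2. Of 18903 probe sets, 95 (0.503%) passed an adjusted p of 0.05 in limma; 25 (0.132%) were higher and 70 (0.37%) lower in triCH1flox2, for 20 and 50 genes with a single symbol. Log2 differences ran from 0.87 to 1.69 among those called higher and from -3.50 to -0.82 among those called lower. All 4 arrays of 1 side lay beyond all 4 of the other for 25 of 25 called higher and 66 of 70 called lower, which over all tested probe sets held for 5.97% and 5.19%, 11.2% together. The 95 had the same sign in normoxia and in hypoxia. They were chosen for large differences in the mean of these same values, so this says little about either condition. At an unadjusted p of 0.05, 2697 probe sets (14.3%) passed, with 945 the number expected where nothing differs, 1502 (7.95%) higher and 1195 (6.32%) lower; after centring each array on its median that split was 1163 to 1528. The called count rests on few lines: it was 0 and 0 (higher and lower) without the variance trend of limma, 8 and 36 after quantile normalization, 8 and 13 without flox2_1, 30 and 57 without flox2_2, 0 and 22 without triCH1flox2_1 and 25 and 84 without triCH1flox2_2. Of the 25 and 70, only 1 and 10 were among those called without flox2_1, 5 and 32 without flox2_2, 0 and 16 without triCH1flox2_1 and 4 and 40 without triCH1flox2_2.

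Genes that license and copy DNA were among those that rose most. Cdc6, which loads the replicative helicase at origins, read 502.5 and 284.1 in flox2_1, 516.7 and 434.4 in flox2_2, 1508.4 and 817.7 in triCH1flox2_1 and 1332.5 and 1061.0 in triCH1flox2_2, in normoxia and hypoxia. Every triCH1flox2 array was above every flox2 array, with line means of 1180 ± 23.8 against 434 ± 58.2 (SD, n = 2 lines) and a log2 difference of 1.40 ± 0.17 (2.64-fold; limma, adjusted p = 0.0434). Cdt1, its partner in helicase loading, ran from 1106.8 to 2091.7 in flox2 and from 2961.1 to 4784.6 in triCH1flox2 arrays, a difference of 1.33 ± 0.16 (limma, adjusted p = 0.0434). Mcm5, a subunit of that helicase, read 862.8, 687.2, 1029.6 and 824.5 in flox2 arrays and 2254.0, 1687.8, 2772.6 and 1851.9 in triCH1flox2 arrays (line 1 normoxia and hypoxia, then line 2). The groups did not overlap, and its difference was 1.30 ± 0.16. Mcm3, another subunit, had 3 called probe sets, the largest at 1.47 ± 0.16, with all 4 of its other tested probe sets in the same direction.

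On a list of DNA replication genes, 4 of 24 tested members were called higher and 0 lower, where 0.179% of 10059 genes were called higher and 0.437% lower with 1 probe set per gene. All 24 differences were above 0, from 0.38 to 1.40, and for 21 of 24 (87.5%) the arrays did not overlap, against 6.75% of all genes. At an unadjusted p of 0.05, 22 of 24 were higher, against 9.07% of all genes. The list's median difference was 0.88, with all tested genes at 0.04. It was 0.94 in normoxia and 0.87 in hypoxia, and all 24 members were above 0 in both. Prim1, the small subunit of the primase, and Fen1, the nuclease that trims Okazaki fragments, were called through another of their probe sets, at 1.12 ± 0.15 and 0.99 ± 0.14.

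Mitotic genes lay in the same direction with smaller differences. Of 23 tested, 2 were called higher, where 0.179% of all genes were. Ccna2, the cyclin of S phase and mitotic entry, rose by 0.90 ± 0.12, and Top2a, which untangles sister chromatids, by 0.99 ± 0.12. Ccna2 read 2046.4 to 2221.2 in flox2 and 3856.8 to 4293.2 in triCH1flox2 arrays. All 23 differences were above 0, with a median of 0.56, and 14 (60.9%) had no overlap of arrays, against 6.75% of all genes. Prc1 and Kif11, which organise the spindle, were at 0.88 ± 0.13 and 1.01 ± 0.16 and missed the threshold (limma, adjusted p = 0.0557 and 0.0634). Other genes called higher included Fbxo5, an inhibitor of the anaphase-promoting complex, at 1.24 ± 0.14, and Fignl1, an ATPase of recombination repair, at 1.24 ± 0.16. In all, 8 of the 20 genes called higher were on the replication or mitotic list, and 0 of the 50 called lower. These lists held 24 and 23 of the 10059 tested genes.

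Promoters of the replication genes were read from the RefSeq table (GRCm38.p6) for the letters bound by E2F, the factor that governs S-phase genes. TTTGGCGC or TTTCCCGC, on either strand within 250 bases before the start, stood in 5 of 20 replication genes with an entry (25%), in 3.1% of tested genes and in 1.51% of all genes in the table. No match was returned for Mcm3, Cdt1, Prim1, Fen1, Ccna2, Top2a, Fbxo5 or Usp1, which were also called higher. Which of these had an entry was not recorded, so a promoter without the letters cannot be told from a missing entry. Mcm5 and Cdc6, whose values are given above, each held 1 match, 149 and 138 bases before the start. The stretches around them are shown on the strand of the gene, with the match in capitals. The list was chosen as replication genes, so the share is a property of the list and not a result of these arrays. A match is a description of letters, not of binding, and a part of E2F in the increases was not tested.

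Mcm5, chr8:75109324-75109403, plus strand: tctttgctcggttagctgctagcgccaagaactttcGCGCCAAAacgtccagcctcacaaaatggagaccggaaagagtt
Cdc6, chr11:98907977-98908056, plus strand: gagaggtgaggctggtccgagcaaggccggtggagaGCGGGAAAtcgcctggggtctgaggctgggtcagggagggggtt

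The other large increases were of signalling and less described genes. Gas1, a membrane protein that binds hedgehog ligands, rose 3.23-fold, the largest called increase. It read 610.0 and 591.0 in flox2_1, 971.5 and 309.6 in flox2_2, 2200.0 and 2469.5 in triCH1flox2_1 and 2213.3 and 1091.1 in triCH1flox2_2. The groups did not overlap, although flox2_2 in normoxia and triCH1flox2_2 in hypoxia came close to each other (1.69 ± 0.21; limma, adjusted p = 0.0434). Wnt10a, a Wnt ligand, ran from 334.3 to 624.6 in flox2 and from 922.8 to 1395.4 in triCH1flox2 arrays, a difference of 1.41 ± 0.16. Fndc4, a secreted fibronectin-type protein, ran from 113.5 to 201.0 and from 458.0 to 502.6, a difference of 1.56 ± 0.19. Tcof1, which encodes treacle, a factor of ribosomal RNA synthesis, rose by 1.29 ± 0.16. Zfp367, a zinc finger protein, and Tmem176a, a membrane protein, rose by 1.18 ± 0.16 and 1.17 ± 0.16. Tmem176b, the neighbour of Tmem176a and chosen after its values were seen, was also called, at 1.06 ± 0.14.

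**Figure D2:**
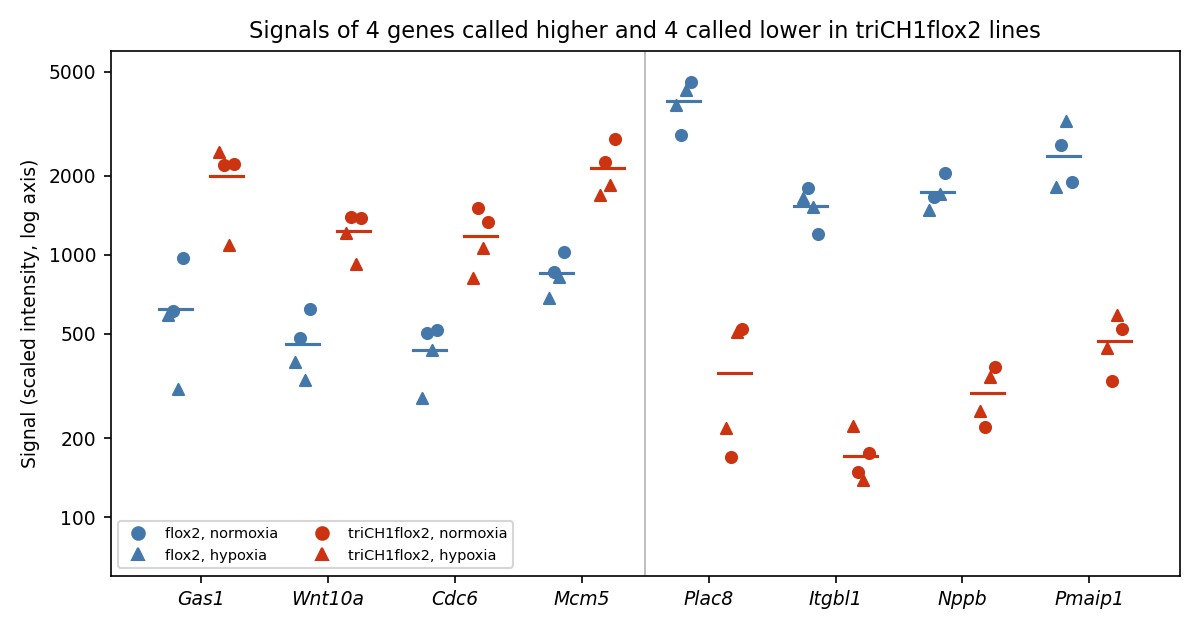
Signals of 8 of the named genes on a log axis, 4 called higher (left) and 4 called lower (right); each point is 1 array, circles are normoxia, triangles hypoxia, and bars are means of 4 arrays. For all 8 genes the triCH1flox2 arrays lie on 1 side of the flox2 arrays, with Plac8 and Itgbl1 farthest apart.

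The largest decreases exceeded the largest increases in size. Plac8, a small cysteine-rich protein, read 2872.9 and 3739.9 in flox2_1, 4572.9 and 4246.2 in flox2_2, 169.7 and 218.5 in triCH1flox2_1 and 523.9 and 506.6 in triCH1flox2_2. The difference was -3.50 ± 0.40, 11.3-fold lower (limma, adjusted p = 0.0434). The arrays of each line were alike in both oxygen conditions, and triCH1flox2_1 was below triCH1flox2_2. Itgbl1, a secreted protein with integrin-type EGF repeats, read 1806.9, 1641.6, 1198.1 and 1517.9 in flox2 and 148.8, 222.4, 176.3 and 139.3 in triCH1flox2 arrays. The difference was -3.03 ± 0.19, 8.16-fold lower, with the smallest adjusted p of the comparison (limma, 0.0221), which it shared with Ankrd37.

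Other named genes fell beside these. Nppb, the B-type natriuretic peptide, ran from 1488.9 to 2057.6 in flox2 and from 221.0 to 373.6 in triCH1flox2 arrays, a difference of -2.48 ± 0.22. Rgs16, which shortens signalling by G proteins, fell 6.01-fold, with both of its other tested probe sets in the same direction. Edil3, an extracellular ligand of integrins, was called at -2.30 ± 0.31, and Pdzrn3, an E3 ubiquitin ligase, at -2.20 ± 0.22. Crct1 and Lce1f, genes of the epidermal differentiation cluster, were called at -2.76 ± 0.34 and -2.66 ± 0.30. On the list of epithelial markers, by contrast, 0 of 6 tested were called, with 4 above 0 and 2 below. Krt18, a keratin on that list, lay the other way without overlap of arrays, at 1.24 ± 0.21 (limma, adjusted p = 0.0657). AA467197, Srpx2 (a secreted sushi-repeat protein) and Gzme (a granzyme) were bright in flox2 arrays, with means of 291, 251 and 276, and near background in triCH1flox2, with means of 20.5, 17.2 and 31.4, so they passed the filter on mean signal only through the group where they were high. They are among 8 of the 70 probe sets called lower whose triCH1flox2 mean was under 100. Their log2 differences of -3.08, -2.83 and -2.59 depend on the constant of 20 added to each signal. With a constant of 100 they were -1.71, -1.53 and -1.49, and Srpx2 and Gzme no longer passed (limma, adjusted p = 0.0556 and 0.0566). The size for Lce1f, with a mean of 56.15 in triCH1flox2 arrays, depends on the constant as well. With 100 it was -1.81 and still passed (limma, adjusted p = 0.0348). The Gzme probe set may also read other granzyme genes.

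Few matrix genes were called. Col4a1 and Col4a2, the chains of type IV collagen in basement membranes, lay next to each other in size of change. Col4a1 read 10102.4, 11693.9, 9751.8 and 7405.2 in flox2 and 4118.5, 4601.5, 5705.9 and 3195.8 in triCH1flox2 arrays, without overlap, a difference of -1.15 ± 0.15; that of Col4a2 was -1.14 ± 0.14 (limma, adjusted p = 0.0434 for both). These were the 2 called of 21 collagen chains, where 0.437% of all genes were called lower; 16 of the 21 (76.2%) were below 0, against 44.4% of all genes, with a median of -0.28. Col2a1 and Col10a1, chains of cartilage, were at -2.71 ± 0.48 and -2.26 ± 0.40 and missed the threshold (limma, adjusted p = 0.0755 for both), while Col1a2 and Col3a1, fibrillar chains of fibroblasts named after their values were seen, were at 0.02 ± 0.11 and 0.16 ± 0.22. Lamb1, the laminin β1 chain, had 2 called probe sets, at -1.60 ± 0.20 and -1.43 ± 0.15, and its brightest was at -1.05 ± 0.16 (limma, adjusted p = 0.0557). At the other floxed locus Col4a1, Col4a2 and these Lamb1 probe sets lay between -0.09 and 0.16.

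Among 22 matrix proteases and inhibitors, 2 were called lower, where 0.437% of all genes were. Plau, the urokinase plasminogen activator, read 830.4, 895.9, 601.6 and 433.7 in flox2 and 106.2, 163.6, 150.6 and 127.8 in triCH1flox2 arrays, a difference of -2.14 ± 0.27. Mmp2, the gelatinase that cleaves type IV collagen, was called at -1.02 ± 0.14 and its second probe set at -1.03 ± 0.14. Mmp13 and Adamts12 were at -2.00 ± 0.47 and -1.03 ± 0.17 and did not pass. Their median was -0.37, and 6 of 22 (27.3%) had no overlap on the lower side, against 5.62% of all genes. Of 33 matrix glycoproteins and proteoglycans 0 were called in either direction. Without overlap were 8 (24.2%) on the lower side and 2 (6.06%) on the higher, where all genes had 5.62% and 6.75%.

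Of the HIF targets outside glucose use 2 of 31 were called, both lower, where 0.437% of all genes were called lower. Ankrd37, an ankyrin-repeat protein known as a HIF-1 target, read 494.9 and 564.8 in normoxia and 5628.0 and 6285.8 in hypoxia in the flox2 lines, and 146.6 and 89.3 in normoxia and 904.0 and 1230.7 in hypoxia in the triCH1flox2 lines. The genotypes did not overlap within either oxygen condition, and the mean difference was -2.25 ± 0.15 (limma, adjusted p = 0.0221). It was -2.02 in normoxia and -2.47 in hypoxia, and the rise from normoxia to hypoxia was 3.46 and 3.43 in the flox2 lines and 2.47 and 3.52 in the triCH1flox2 lines, a difference in response of -0.45 ± 0.42. Egln3, the prolyl hydroxylase PHD3 that marks HIF for degradation, read 479.7 and 519.4 in normoxia and 6799.3 and 5747.4 in hypoxia in flox2, and 184.8 and 283.7, then 1028.1 and 1264.5, in triCH1flox2. Its difference was -1.75 ± 0.18 (limma, adjusted p = 0.0434), -1.06 in normoxia and -2.43 in hypoxia. The hypoxic rise was 3.77 and 3.42 against 2.36 and 2.08, a difference in response of -1.38 ± 0.39 that did not pass (limma, unadjusted p = 0.005, adjusted p = 1.00).

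Pgf, placental growth factor, a ligand of VEGF receptor 1, was high in 1 condition. It read 21.6 and 20.8 in normoxia and 697.7 and 540.8 in hypoxia in the flox2 lines, and 23.5 and 14.0, then 9.0 and 37.1, in the triCH1flox2 lines. High signals were thus seen on the hypoxic flox2 arrays alone among these 8. The mean difference of -2.03 ± 0.32 and the difference in response of -3.86 ± 0.52 both missed the threshold (limma, adjusted p = 0.0594 and 0.395). Since 6 of its 8 signals were near background, these sizes depend on the added constant: with 100 in place of 20 they were -1.29 and -2.52, and both passed (limma, adjusted p = 0.0348 and 0.00866). Ero1a, an oxidase of protein folding, was at -0.75 ± 0.15 (limma, adjusted p = 0.0963).

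Over the 31 tested members, 26 (83.9%) were below 0, against 44.4% of all genes, and 15 (48.4%) had an unadjusted p under 0.05 on the lower side, against 6.92% of all genes. The median difference was -0.12 in normoxia and -0.64 in hypoxia, where all tested genes had 0.03 and 0.04. The difference was lower in hypoxia than in normoxia for 28 of 31 (90.3%), against 48.0% of all tested probe sets. In the test of the difference in response itself 0 of 18903 probe sets passed (0.0% called; 397, or 2.1%, at an unadjusted p of 0.05), and 5 of the 31 had an unadjusted p under 0.05. On the list of 17 HIF targets of glucose use, 0 were called, 13 (76.5%) were below 0 and the median was -0.15. There too the difference was lower in hypoxia than in normoxia, for 15 of 17 (88.2%), with medians of -0.25 and -0.08. In the test of the difference in response, 1 of these 17 had an unadjusted p under 0.05. Slc2a3 and Pfkfb3, a glucose transporter and a regulator of glycolysis, were at -1.20 ± 0.22 and -0.73 ± 0.20, while Pgk1 and Ldha, glycolytic enzymes named after their values were seen, were at -0.15 ± 0.12 and 0.05 ± 0.14.

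**Figure D3:**
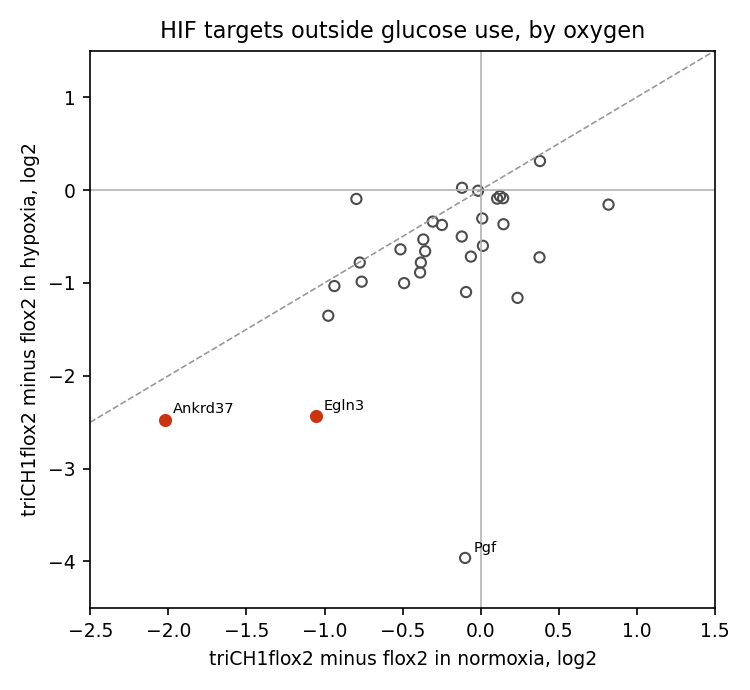
Log2 difference, triCH1flox2 minus flox2, of 31 HIF targets outside glucose use in normoxia (x axis) and in hypoxia (y axis); each point is 1 gene, filled points were called on the mean, and the dashed line marks equal differences. For 28 of 31 the point lies below the line, and Pgf is near 0 in normoxia and at -3.96 in hypoxia.

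Promoters of the other HIF targets were searched for ACGTG, the core of the hypoxia response element, in the same way. It stood in 16 of 24 with an entry (66.7%), in 26.2% of tested genes and in 18.5% of all genes in the table. The list was chosen as HIF targets, so this share is a property of the list and not a result of these arrays. A match is again a description of letters, not of binding. No match was returned for Pgf, and whether it had an entry was not recorded. Ankrd37 held 2 matches, the nearer 6 bases before the start, and Egln3 1, 229 bases before it. The stretches of these called members are shown on the strand of the gene, with the match in capitals (GRCm38.p6).

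Ankrd37, chr8:45999851-45999930, minus strand: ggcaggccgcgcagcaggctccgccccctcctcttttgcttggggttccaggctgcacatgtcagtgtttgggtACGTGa
Egln3, chr12:54204045-54204124, minus strand: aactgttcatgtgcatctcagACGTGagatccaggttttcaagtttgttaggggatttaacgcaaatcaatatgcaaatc

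Of the p53 targets 1 was called. Pmaip1, which encodes the cell death protein NOXA, read 2626.9, 1815.8, 1901.7 and 3225.6 in flox2 and 330.6, 440.9, 523.9 and 591.1 in triCH1flox2 arrays. It was the 1 called lower of 20, where 0.437% of all genes were, at -2.29 ± 0.20 (4.87-fold lower; limma, adjusted p = 0.0419). Cdkn1a, the cell cycle inhibitor p21, was at -0.74 ± 0.15, Trp53inp1 at -0.82 ± 0.15 and Mdm2, the ligase that degrades p53, at -0.65 ± 0.14. For these 3 the arrays did not overlap, but none passed (limma, adjusted p = 0.0997, 0.0841 and 0.12). Of the 20, 15 (75%) were below 0, against 44.4% of all genes, with a median of -0.29, and 6 (30%) had no overlap on the lower side, against 5.62%.

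Further lists held 1 or 2 called members, where 0.437% of all genes were called lower and 0.179% higher. Ackr3, the scavenging receptor of CXCL12, ran from 574.6 to 1506.0 in flox2 and from 118.4 to 240.7 in triCH1flox2 arrays, a difference of -2.18 ± 0.26, the 1 called of 16 chemokine, cytokine and NF-kB genes. Of these 16, 7 were above 0 and 9 below. Tslp, a cytokine on that list, lay the other way at 2.12 ± 0.45 and did not pass (limma, adjusted p = 0.11). Pappa, the protease that frees IGF from IGFBP4, was at -2.01 ± 0.26, the 1 called of 14 genes of the IGF axis. Dusp1, a phosphatase of MAP kinases and a target of CREB, was at -1.14 ± 0.13, the 1 called of 13. Of these 13, 5 were above 0 and 8 below, with Fos at 0.55 ± 0.16 (limma, adjusted p = 0.187). Nupr1, a stress-induced chromatin protein, was at -0.83 ± 0.11, the 1 called of 21 ATF4 targets. That list did not share its direction: 11 (52.4%) were above 0, against 55.6% of all genes, with a median of 0.04. Cebpb, Slc7a5 and Slc3a2 were at 0.45 ± 0.14, 0.46 ± 0.15 and 0.31 ± 0.12 and did not pass. Among 20 Wnt genes Wnt10a was called higher and Cthrc1, a secreted protein that binds Wnt receptors, lower, at -1.42 ± 0.18, and 4 (20%) had no overlap on each side, against 6.75% (higher) and 5.62% (lower) of all genes.

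**Figure D4:**
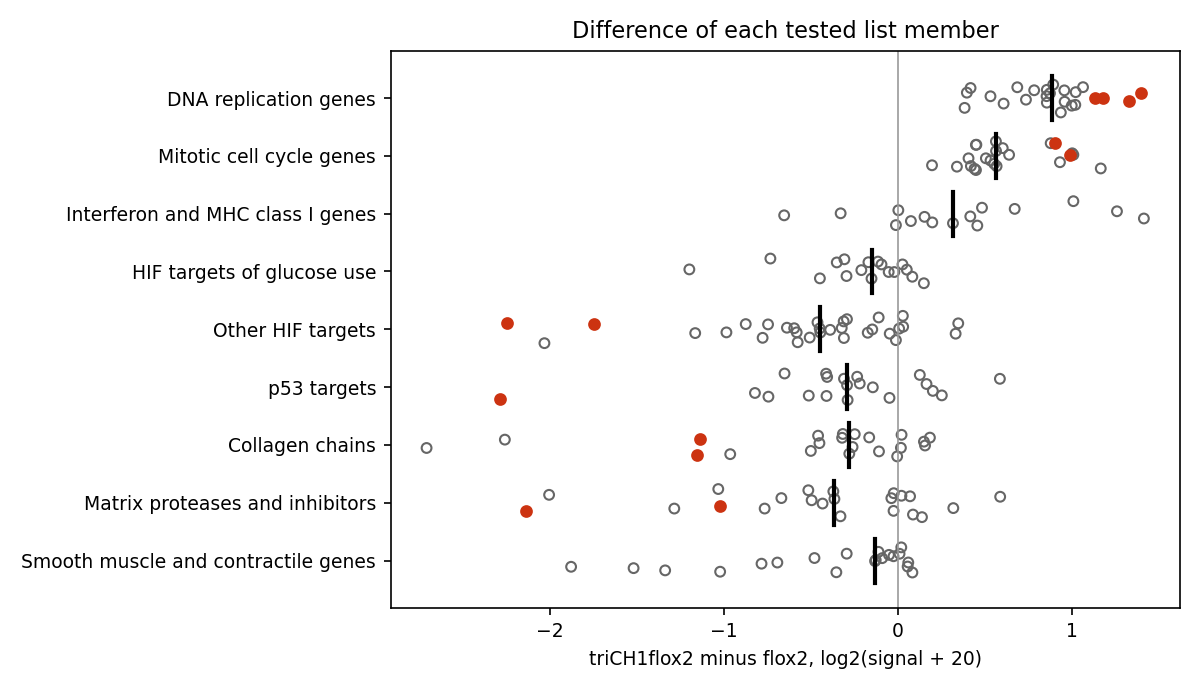
Log2 difference, triCH1flox2 minus flox2, of each tested member of 9 gene lists; open points were not called, filled points were, and the black bar is the list median. Replication and mitotic genes all lie above 0 (medians 0.88 and 0.56), while HIF targets outside glucose use, p53 targets, collagens and matrix proteases have medians below 0.

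Of 12 fibroblast markers 0 were called, with a median of 0.01 and 6 above and 6 below 0. Thy1, a surface glycoprotein, read 4623.9, 4972.2, 7558.3 and 6111.4 in flox2 and 2397.7, 2306.6, 2517.0 and 2316.6 in triCH1flox2 arrays, at -1.25 ± 0.18 just short of the threshold (limma, adjusted p = 0.051). Dcn, a small proteoglycan, read 53.1, 66.3, 122.5 and 118.2 against 620.5, 856.2, 263.7 and 263.0, with triCH1flox2_1 above triCH1flox2_2, at 2.13 ± 0.49. Pdgfra, a PDGF receptor, was at 1.56 ± 0.31 and Pdgfrb, the other, at -0.64 ± 0.13. Genes of cartilage and bone (10 tested, 0 called) had a median of -0.62, with 7 below and 3 above 0. Tnmd, a tendon membrane protein, was at -1.80 ± 0.28 and Pth1r, a parathyroid hormone receptor, at -1.32 ± 0.29. Scx, on the same list, lay the other way, at 0.68 ± 0.225. Contractile genes (20 tested, 0 called) had a median of -0.13, with Actg2 at -1.52 ± 0.23 and Acta2, named after its values were seen, at 0.08 ± 0.12.

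The same contrast at the other locus, triCH1flox1 minus flox1, has 1 line a side and shares no array with this one, so it allows no test. By the sex markers flox1 was male and triCH1flox1 female, so sex and genotype cannot be told apart there. Of the 25 probe sets called higher, 23 (92%) had the same sign there, and of the 70 called lower 63 (90%) did, against 59.3% of those not called. The medians were smaller there, 0.46 against 1.18 for those called higher and -0.63 against -1.64 for those called lower. Beyond 2-fold in the same direction lay 1 and 22, and 0 lay beyond 2-fold in the opposite one. Wnt10a was the 1, at 1.90, while Gas1 was at 0.29 and Fbxo5 at -0.11. AA467197 and Srpx2 were nearly as low there, at -2.70 and -2.54, and Plac8 at -1.73. Cd59a, an inhibitor of complement and chosen after its values were seen, was called lower through both probe sets, at -1.98 ± 0.19 and -1.95 ± 0.19, and lay above 0 at the other locus, at 0.41 and 0.33. The replication list had 22 of 24 members with the same sign at both loci and a median of 0.35 there, and the other HIF targets 28 of 31 and -0.35.

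**Figure D5:**
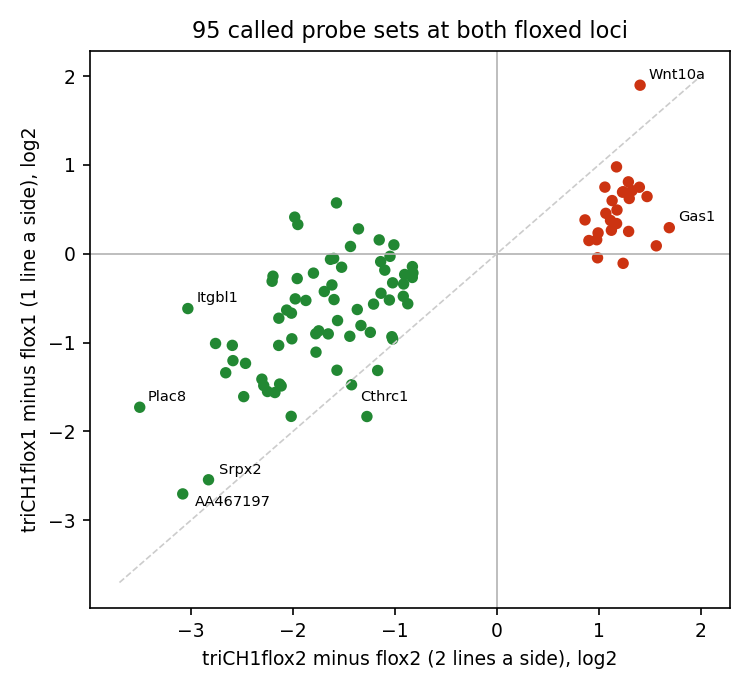
The 95 called probe sets: log2 difference at the Ep300 locus (triCH1flox2 minus flox2, 2 lines a side, x axis) against the Crebbp locus (triCH1flox1 minus flox1, 1 line a side, y axis); red points were called higher, green points lower, and the dashed line marks equal differences. Of those called higher 23 of 25 lie above 0 on the y axis, and of those called lower 63 of 70 lie below 0.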

How the data were processed

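The deposited values are Affymetrix probe set signals on a linear intensity scale. The authors computed them with the vendor's Statistical algorithm and a target of 500, per the labels; the software version is not given in the sources used here. Of 45101 probe sets, 64 controls were left out, and only the 34945 with exactly 1 symbol in the array annotation were named. Signals were used as log2(signal + 20), unnormalized beyond the authors' scaling, where the mean over all 12 arrays reached 100. Each line's normoxia and hypoxia values were averaged, which balances oxygen, and 2 lines were compared with 2 in limma 3.58.1 (R 4.3.3; lmFit, then eBayes with a mean-variance trend; 2 residual degrees of freedom). Tests were two-sided, with Benjamini-Hochberg adjustment over all tested probe sets and a threshold of 0.05. The difference in hypoxia response was tested likewise on hypoxia minus normoxia. An exact permutation test over the 6 assignments of 4 lines cannot go below 0.33 and was not used. The script was tested on simulated data. Differences carry standard errors and line means standard deviations.

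The comparison and its 35 gene lists were chosen with earlier results of these data known; a list uses each gene's brightest probe set. Named were up to 12 called genes in each direction without overlap of arrays, the targeted genes, called list members, up to 4 members by smallest p in each list described, and 5 genes in each direction for the response; the text marks any name picked outside this rule. The deviations of the 2 lines numbered 1 from their genotype means correlated at r = 0.18 over the 18903 tested probe sets. The sample titles do not say whether same-numbered lines are pairs, and no pairing was used. The number of lines, 2 a side, limits the precision. The closing section gives the alternatives.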

Additional observations from a re-analysis of the deposited data

How the results depend on the processing

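The called probe sets kept their sign under every alternative that tested them, but they were chosen for large differences, so this says little about stability. The number called varied. Counts called higher and lower were 66 and 117 with no filter, 56 and 94 with the filter at 200, 8 and 36 after quantile normalization, 38 and 110 after median centring, 0 and 0 without the variance trend (1545 and 1120 at an unadjusted p of 0.05), 57 and 102 with robust eBayes, 12 and 55 in normoxia arrays, 2 and 23 in hypoxia arrays and 64 and 71 with 1 value per gene. Taking the 8 arrays as replicates gave 376 and 421 with the line as a random block and 480 and 523 without it. With the replicate number as a block 640 and 682 were called, but the sample titles do not say whether the numbers pair the lines. With sex as a block it was 26 and 79, of which 15 and 54 were among those reported. Leaving out 1 line gave 0 to 30 and 13 to 84. For the difference in hypoxia response, 0 in the report, the counts were 3 at a pseudocount of 100, 3 after median centring, 28 with the replicate block, 11 with the sex block, 1 with 1 value per gene and 0 to 6 without 1 line. The causes were not tested.

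List medians of replication genes (0.69 to 0.97), mitotic genes (0.44 to 0.66), other HIF targets (-0.64 to -0.12), p53 targets (-0.35 to -0.24), collagens (-0.50 to -0.09) and matrix proteases (-0.54 to -0.10) kept their direction under all 21 alternatives. Signals near background limit the size of large decreases, since no detection calls were used.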

Other observations

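Lists not described above also held differences that missed the threshold. Of 35 adhesion and guidance receptors 0 were called by their brightest probe set, 25 (71.4%) were below 0, against 44.4% of all genes, with a median of -0.33, and 9 (25.7%) had no overlap of arrays on the lower side against 0 on the higher, where all genes had 5.62% and 6.75%; Cdh11, the cadherin of mesenchyme, was at -1.97 ± 0.30 and Itgb3, the β3 integrin, at -1.91 ± 0.31 (limma, adjusted p = 0.0557 and 0.0649). Itgb5, the β5 integrin, was at -0.87 ± 0.13 by that probe set and was called through 2 others, at -0.92 ± 0.12 and -0.90 ± 0.13. Among TGF-beta and BMP genes, Inhbb and Inhba, the activin subunits, were at -1.03 ± 0.16 and -1.08 ± 0.20 (limma, adjusted p = 0.056 and 0.0841).

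Interferon and MHC class I genes lay more often above 0 than below: 12 of 15 (80%) were above 0, against 55.6% of all genes, with a median of 0.32 and 0 called. Bst2, an antiviral membrane protein, read 226.6, 287.2, 330.2 and 251.2 in flox2 and 739.7, 755.5, 626.6 and 597.6 in triCH1flox2 arrays, at 1.26 ± 0.19 (limma, adjusted p = 0.0543), and at the other locus it was at 0.10. Among imprinted genes Dlk1, a membrane regulator of differentiation, was at -1.17 ± 0.18 and Mest at 1.48 ± 0.32. Of 20 other acetyltransferases and deacetylases, 15 (75%) were above 0 with a median of 0.20, 0 were called and 0 had no overlap.

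For the difference in hypoxia response the 5 negative genes with the smallest p were Pgf, Slc35c2, Pde2a, Prdm11 and Slc38a10, and the 5 positive ones Capg, Ptpn6, Tsr3, Pitpnc1 and Zfp697. None passed. Capg, an actin-capping protein, read 287.1 and 435.4 in normoxia and 90.4 and 46.8 in hypoxia in flox2, and 77.0 and 123.4, then 278.7 and 224.7, in triCH1flox2 by 1 probe set. The response of its other tested probe set was not compared.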
